A study of Mus musculus with 6 samples.

Results

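The subject here is a set of 49 genes of DNA replication and nucleotide supply, picked by gene name as S phase machinery, with earlier results of these data known, out of 23060 gene names in the table. All 49 were found in the table, and all 49 reached the level at which genes were tested, 1 FPKM or more when all 6 libraries are averaged. The series is titled for macrophages in atrial fibrillation. The sequenced RNA came from cells that the labels call HL-1, the name of a line derived from mouse atrial muscle, and the design asks how expression changes after tachypacing, which is rapid electrical stimulation that imitates the atrial rate of fibrillation. There were 3 tachypaced and 3 control libraries, all labelled with the genotype WT, the tissue heart and the same culture medium with norepinephrine. The pacing rate and duration are not in the labels. HL-1 is a single established line, and nothing in the labels says that the replicates were separate cultures, so p-values measure only how far these libraries scatter, and that scatter may be technical.

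DNA replication is prepared when the origin recognition complex, CDC6 and CDT1 load the MCM helicase onto origins, and it starts when kinases, CDC45 and the GINS complex switch that helicase on. Polymerases then copy both strands around the sliding clamp PCNA, while ribonucleotide reductase and the thymidylate enzymes keep up the supply of DNA building blocks. Most of these genes are transcribed around entry into S phase under E2F transcription factors. Adult cardiac muscle cells rarely copy their DNA, whereas cultured lines such as HL-1 divide.

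The labelled cell type was first set against its markers. Of 10 cardiomyocyte genes, 5 (Myh6, Actc1, Myl7, Nkx2-5 and Gata4) were listed at 0 in all 6 libraries, and only Tnni3 was high enough to be tested. Summed over the list, cardiomyocyte markers came to 3.72 to 4.0 FPKM in tachypaced and 3.19 to 4.0 FPKM in control libraries. The 10 macrophage markers summed to 1253 to 1391 FPKM in tachypaced and 993 to 1138 FPKM in control libraries, with 0 of them at 0 in every library, and 2 of the 8 tested (Lyz2 and Cd14) rose. Cd68 and Lyz2 made up most of that sum, with means of 452 and 431 FPKM over the 6 libraries. Csf1r had a log2 fold change of -0.01, and Fcgr1 and Mertk averaged below 1 FPKM. Endothelial markers summed to 1.52 to 1.86 FPKM in tachypaced and 1.66 to 1.89 FPKM in control libraries, nearly all of it from Pecam1. Fibroblast markers summed to at most 0.144 FPKM, T cell markers to at most 0.0634 FPKM and B cell markers to at most 0.237 FPKM in any library. The libraries are therefore called by their labels only. Control replicate 1 was unlike control replicates 2 and 3. Its correlations across tested genes were 0.9934, 0.9923 and 0.9949 with tachypaced replicates 1, 2 and 3. With control replicates 2 and 3 they were 0.9919 and 0.9902, below each of the tachypaced ones. Results are given with and without control replicate 1. The part of macrophage marker levels in the results below was not tested.

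All 49 replication genes had a lower mean in tachypaced than in control libraries. On the log2(FPKM + 1) scale, 12 of them fell at an adjusted p of at most 0.05 (limma with trend, Benjamini-Hochberg over 10361 tested genes), which is 24.5% of the set, against 3.22% of all tested genes called lower. None rose, against 2.3% of all tested genes called higher (at an unadjusted p below 0.05, 34 members were lower and 0 higher). Unadjusted p-values this low were common: 3124 of the 10361 tested genes had one, in either direction. Counts of called and of unadjusted genes by role group and list below are to be read beside these shares. The 12 were Tk1, Rpa1, Rrm1, Pold1, Uhrf1, Rfc4, Lig1, Pola2, Gins4, Prim2, Rfc1 and Rrm2, and their adjusted p ran from 0.0435 to 0.0479. The median log2 fold change was -0.32 over the 49 members and -0.04 over all tested genes. In 35 of the 49 every tachypaced value lay below every control value, or 71.4%, against 22.4% of all tested genes. Every tachypaced value lay above every control value in 0 members, against 12.6% of all tested genes.

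Calls in these libraries depended on which library was left out. Without control replicate 1, 30 of the 49 fell, or 61.2%, against 18.8% of all tested genes called lower and 11.2% called higher, and the median log2 fold change was -0.35. All 12 genes above were among those 30. Control replicate 1 was the lowest control in 37 of the 49, so leaving it out tends to widen the difference and narrow the control spread. Calls and p-values without it, here and below, are therefore descriptive and add no independent support. Without any other single library 0 members passed in either direction, while 30 to 34 of them had an unadjusted p below 0.05 and a lower value. Over all tested genes in those settings, at most 1 passed as lower and at most 3 as higher, so the loss of calls was not particular to the members. Between 1992 and 2740 of all tested genes had an unadjusted p below 0.05 there, in either direction. The counts over all genes, 334 lower and 238 higher, became 922 and 250 when each library was rescaled to a common total, and 183 and 221 under median of ratios scaling. Under those scalings 25 and 8 members fell. With quantile normalization, without the trend in limma's prior variance, or without the filter on low values, 0 members and at most 4 genes of the table passed as lower. In these settings 29 to 33 members were lower at an unadjusted p below 0.05, beside 3008, 3057 and 3488 of all tested genes in either direction. RNA from whole cultures cannot tell fewer cells in S phase apart from less of each transcript per cell.

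**Figure D1:**
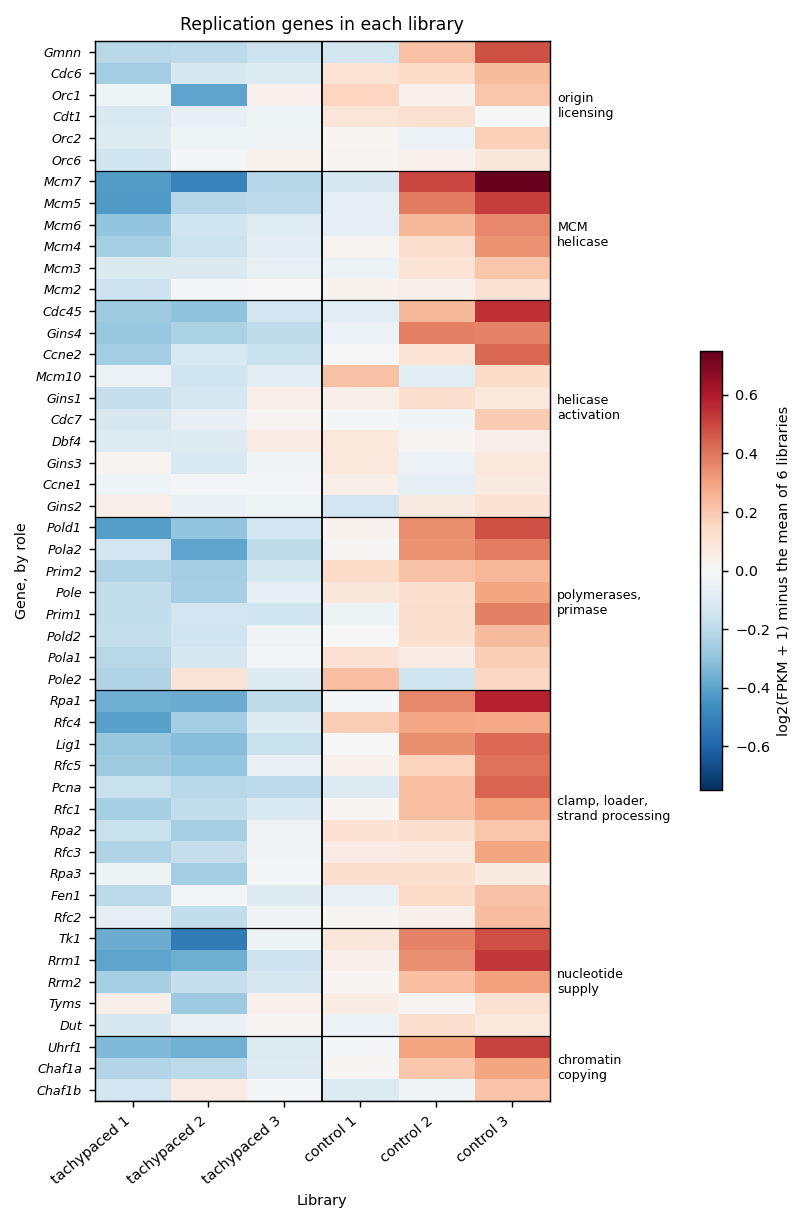
Heat map of the 49 replication genes (rows, grouped by role) in the 3 tachypaced and 3 control libraries (columns), coloured by log2(FPKM + 1) minus the mean of the 6 libraries. Tachypaced columns are mostly blue and control columns 2 and 3 mostly red, while control 1 lies between them in most rows and is the lowest of the controls in 37 of the 49.

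Promoter sequences of 40 of the 49 members were found in RefSeq (build GRCm38.p6), as windows from 250 bases before to 50 after a transcription start, 48 windows in all. Ccne2, Gins1, Gins2, Gins4, Gmnn, Mcm4, Pole, Prim2 and Rfc2 had no entry. The windows were searched on both strands for the E2F motif, spelled TTTCCCGC, TTTGGCGC, TTTCGCGC or TTTGCCGC, and for the CCAAT box. Of the members' windows, 29.2% held an E2F motif, against 2.26% of all 32851 promoter windows and 4.19% of the windows of tested genes. A CCAAT box stood in 56.3% of the members' windows, against 37.4% of all windows and 38.1% of those of tested genes. The median share of G and C was 61.3% and 52.7% in the members and all windows, and the part of base composition in these shares was not tested. Of 20 E2F matches in the members, 12 had their centre within 60 bases of the start, and 1 overlapped a motif of another kind. In Mcm5 and in Mcm6, E2F matches on opposite strands also overlapped each other and were counted separately.

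Shown here are the window of Mcm6, the most abundant MCM transcript and the member with 3 E2F matches, that of Mcm7, which had the largest difference of the set, and those of Pold1 and Rpa1, which fell furthest in their role groups. Sequences run 5′ to 3′ on the strand of the gene, and capitals mark E2F motifs and CCAAT boxes; on the printed strand a motif of the other strand appears as its reverse complement. They lie at chr1:128359656-128359955, minus strand (Mcm6), chr5:138171834-138172133, minus strand (Mcm7, the upstream of its 2 windows), chr7:44548766-44549065, minus strand (Pold1) and chr11:75348334-75348633, minus strand (Rpa1).
Mcm6: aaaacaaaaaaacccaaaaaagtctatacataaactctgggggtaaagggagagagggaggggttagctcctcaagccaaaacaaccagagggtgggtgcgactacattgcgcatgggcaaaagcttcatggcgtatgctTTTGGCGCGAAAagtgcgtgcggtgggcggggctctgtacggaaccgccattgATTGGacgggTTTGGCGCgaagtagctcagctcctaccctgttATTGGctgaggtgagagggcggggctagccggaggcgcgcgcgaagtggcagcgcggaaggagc
Mcm7: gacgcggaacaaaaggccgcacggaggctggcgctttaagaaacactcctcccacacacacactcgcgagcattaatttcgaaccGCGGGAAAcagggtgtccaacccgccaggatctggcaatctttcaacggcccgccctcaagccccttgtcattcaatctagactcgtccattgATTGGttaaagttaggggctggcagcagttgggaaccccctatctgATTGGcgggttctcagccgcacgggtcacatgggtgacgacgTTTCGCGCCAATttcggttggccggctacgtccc
Pold1: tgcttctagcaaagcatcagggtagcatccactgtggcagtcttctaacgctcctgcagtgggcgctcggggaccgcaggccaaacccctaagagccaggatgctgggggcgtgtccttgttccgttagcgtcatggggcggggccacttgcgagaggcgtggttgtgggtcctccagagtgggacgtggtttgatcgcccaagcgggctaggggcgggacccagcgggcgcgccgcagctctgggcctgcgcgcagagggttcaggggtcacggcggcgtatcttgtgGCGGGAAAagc
Rpa1: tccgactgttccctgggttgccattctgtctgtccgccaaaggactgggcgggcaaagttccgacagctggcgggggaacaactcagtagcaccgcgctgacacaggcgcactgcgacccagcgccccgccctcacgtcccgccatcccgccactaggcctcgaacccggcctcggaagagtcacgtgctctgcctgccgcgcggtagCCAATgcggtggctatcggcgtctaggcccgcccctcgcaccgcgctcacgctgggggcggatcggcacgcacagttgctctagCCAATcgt

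In the Mcm6 window a pair of E2F matches overlaps on opposite strands, and a further one lies closer to the start, between the CCAAT boxes. In the Mcm7 window 1 E2F match lies far upstream and the other just past the start. Pold1 carries its only E2F match downstream of the start. Rpa1 has 2 CCAAT boxes and no E2F match by these letters. Of the 14 members with an E2F match 3 were among the 12 that fell, and of the 26 without one 7 were. The median log2 fold change was -0.30 in members with a match and -0.26 in those without. Members with a CCAAT box had a median of -0.30 (24 genes, 5 of the 12) and those without one -0.18 (16 genes, 5 of the 12). GGGCGG, the letters of the GC box, stood in 72.9% of the members' windows, against 35.7% of all windows and 64.4% of those of tested genes, and 9 of the 31 members with it and 1 of the 9 without it were among the 12. The cell cycle homology motif TTTGAA or TTCGAA stood in 20.8% of the members' windows, against 19.2% of all windows and 14.1% of those of tested genes, and 0 of the 9 members with it and 10 of the 31 without it were among the 12. None of these splits by motif was tested.

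**Figure D2:**
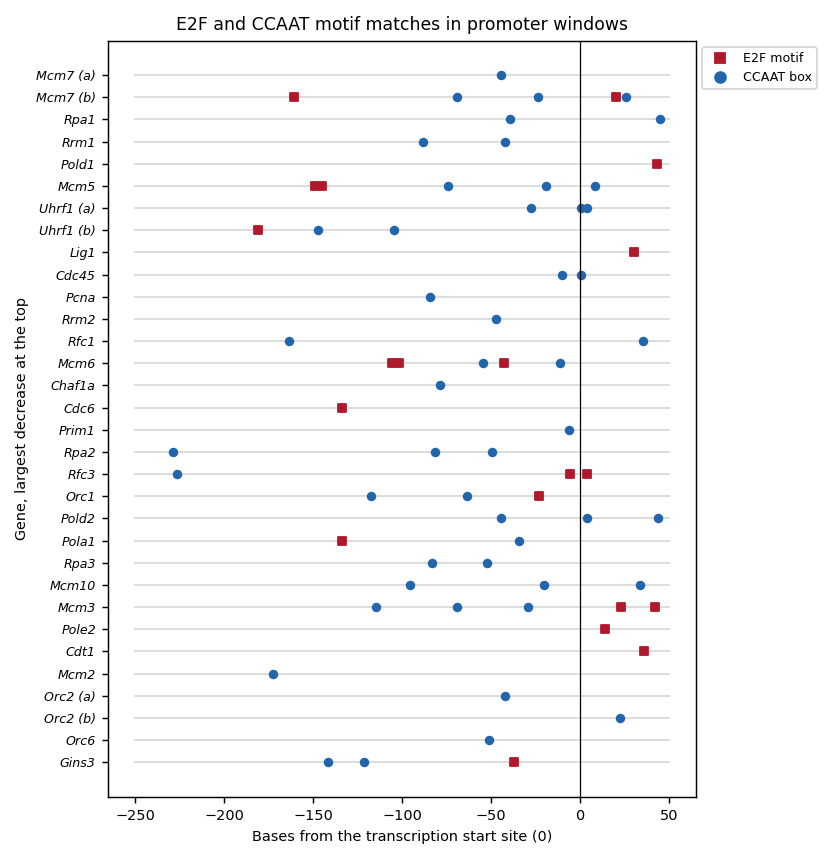
E2F motifs (squares) and CCAAT boxes (circles) in the promoter windows of members that hold at least 1, with bases from the transcription start on the x axis and genes ordered from the lowest log2 fold change at the top (a and b mark 2 windows of a gene). E2F matches are spread from top to bottom of the order.

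Origin licensing genes were between 6.56% (Orc6) and 29.1% (Cdc6) lower in mean FPKM. None of the 6 passed limma's test in either direction, against 3.22% lower and 2.3% higher of all tested genes. At an unadjusted p below 0.05, 4 were lower, and the median log2 fold change was -0.20. Gmnn, whose product geminin holds CDT1 in check, was the most abundant, with 28.1, 28.3 and 29.1 FPKM in tachypaced libraries, against 29.5, 38.2 and 45.8 FPKM in control libraries. The tachypaced values were nearly equal and the control values spread widely, with control replicate 1 almost at the tachypaced level. Its log2 fold change of -0.37 (SE 0.13) missed the threshold (adjusted p = 0.0969) and was -0.54 without control replicate 1 (adjusted p = 0.00187). Cdt1 itself, the loader that geminin binds, averaged 26.7 ± 0.787 FPKM in tachypaced and 29.5 ± 1.26 FPKM in control libraries (SD, n = 3 each), a difference of -0.14 (adjusted p = 0.138). Cdc6, the other loading factor, was the least abundant member of the whole set, with 1.38, 1.62 and 1.65 FPKM in tachypaced libraries, against 2.06, 2.14 and 2.36 FPKM in control libraries. These groups did not overlap, and without control replicate 1 the gene passed (adjusted p = 0.0244), as did Gmnn alone of the other 5. The origin recognition subunits Orc1, Orc2 and Orc6 had log2 fold changes of -0.27, -0.10 and -0.09, and the groups overlapped for Orc2 and Orc6.

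The MCM subunits, which form the ring-shaped core of the replicative helicase, were lower in every tachypaced library than in any control library for all 6 genes (22.4% of all tested genes lay apart in this way), yet 0 of the 6 passed limma's test in either direction (5 had an unadjusted p below 0.05). Mcm7 (chromosome 5, 138164583 to 138172422, GRCm38, as for all gene positions here) had the lowest fold change of the set, at -0.75 (SE 0.19, adjusted p = 0.0526). It stood at 12.6, 11.8 and 14.6 FPKM in tachypaced libraries, against 15.7, 24.7 and 29.5 FPKM in control libraries, and control replicate 1 lay close to the highest tachypaced value. Without that library the difference was -1.0 (adjusted p = 0.000662). Mcm5 followed, with 14, 16.3 and 16.5 FPKM in tachypaced libraries, against 18.1, 25.3 and 27.9 FPKM in control libraries (log2 fold change -0.56, adjusted p = 0.0526). Mcm6, the most abundant subunit, had 23, 25.6 and 26.7 FPKM in tachypaced libraries, against 27.2, 34 and 36.9 FPKM in control libraries. It differed by -0.36 (adjusted p = 0.0704). The remaining subunits differed less, with log2 fold changes of -0.32 for Mcm4, -0.18 for Mcm3 and -0.11 for Mcm2, and without control replicate 1 all of the subunits but Mcm2 fell.

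The subunits of this ring differed in how far apart the groups lay. The FPKM of Mcm7 divided by that of Mcm3, both per transcript length, was 0.510, 0.479 and 0.570 in tachypaced libraries, against 0.602, 0.860 and 0.951 in control libraries. The ratios do not overlap between the groups, with control replicate 1 next to the tachypaced ones, and their difference was not tested. Exons of Mcm7 overlap those of Cops6 and Ap4m1 on the opposite strand, and the strand setting of the counting is not given in the sources used here, so reads there cannot be told apart. Overlaps of this kind concern 15 of the 49 genes, among them Lig1, Rfc4, Tk1 and Cdc45. Cops6 and Ap4m1 had log2 fold changes of -0.21 (adjusted p = 0.184) and -0.22 (adjusted p = 0.131).

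Among the factors that activate the loaded helicase, 1 of 10 fell and 0 rose, against 3.22% and 2.3% of all tested genes. The median was -0.14, and 3 had an unadjusted p below 0.05, all lower. The gene that fell was Gins4, a subunit of the 4-part GINS complex that joins CDC45 and MCM (chromosome 8, 23226616 to 23237659). Its values were 11.3, 11.7 and 12.1 FPKM in tachypaced libraries, against 13.5, 18.5 and 18.4 FPKM in control libraries, a log2 fold change of -0.47 (standard error 0.11, adjusted p = 0.0467). Control replicates 2 and 3 lay together well above the rest. The other GINS genes did not pass: Gins1 differed by -0.16 and Gins3 by -0.08, and Gins2 had one of the smallest differences of the set. Gins2 stood at 7.59, 6.99 and 7.11 FPKM in tachypaced libraries, against 6.49, 7.69 and 7.92 FPKM in control libraries, with a log2 fold change of -0.02 (95% interval -0.21 to 0.17), which took the opposite sign under median of ratios scaling and quantile normalization. Cdc45, the partner of GINS on the helicase, averaged 6.68 ± 0.444 FPKM in tachypaced and 9.85 ± 2.35 FPKM in control libraries (SD, n = 3 each; -0.48, adjusted p = 0.0686) and fell without control replicate 1 (adjusted p = 0.00296).

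The kinase genes of helicase activation had small differences. Dbf4, the activating subunit of the CDC7 kinase and the most abundant gene of this group, had 19.4, 19.4 and 21.8 FPKM in tachypaced libraries, against 22.1, 21.1 and 21.6 FPKM in control libraries, and the groups overlapped. Cdc7 itself differed by -0.11 and Mcm10, a factor that helps the helicase start unwinding, by -0.19, with overlapping groups for both. The E-type cyclins, which drive CDK2 at entry into S phase, had unlike values. Ccne1 stood at 18.4, 18.8 and 18.7 FPKM in tachypaced libraries, against 19.6, 18 and 19.8 FPKM in control libraries, a log2 fold change of -0.03 (95% interval -0.17 to 0.10) that turned positive under quantile normalization. Ccne2, which is much scarcer here, averaged 2.91 ± 0.202 FPKM in tachypaced and 4.05 ± 0.806 FPKM in control libraries (SD, n = 3 each) without overlap (log2 fold change -0.36, adjusted p = 0.0820). The ratio of Ccne2 to Ccne1 FPKM was 0.146, 0.165 and 0.156 in tachypaced libraries, against 0.176, 0.208 and 0.250 in control libraries, and these do not overlap.

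Of 8 polymerase and primase genes 3 fell and 0 rose, against 3.22% and 2.3% of all tested genes. At an unadjusted p below 0.05, 7 were lower. Pold1, the catalytic subunit of polymerase delta (chromosome 7, 44532746 to 44548849), had 7.04, 7.70 and 8.68 FPKM in tachypaced libraries, against 9.92, 12.6 and 13.9 FPKM in control libraries. That is 35.7% lower in mean FPKM and a log2 fold change of -0.57 (standard error 0.12, adjusted p = 0.0435). Pold2, the accessory subunit of the same polymerase and the most abundant gene of the group, differed by -0.24, with 29.1, 29.8 and 32.6 FPKM in tachypaced libraries, against 33.2, 36.1 and 39.2 FPKM in control libraries. It did not pass (adjusted p = 0.0791), and its groups came close without overlapping. Pola2, the accessory subunit of the polymerase that starts each strand (chromosome 19, 5940542 to 5964202), had 10.7, 8.82 and 10.3 FPKM in tachypaced libraries, against 12, 15.3 and 15.8 FPKM in control libraries. It fell by 0.49 on the log2 scale (SE 0.11), while its catalytic partner Pola1 differed by -0.23 (adjusted p = 0.0885). Prim2, the large primase subunit (chromosome 1, 33453810 to 33669795), had 11.4, 11.1 and 12.2 FPKM in tachypaced libraries, against 15, 15.9 and 16.2 FPKM in control libraries. Its log2 fold change was -0.41 (SE 0.06), and it had the smallest p of the whole set. The replicates of both groups lay close together, and control replicate 1 stayed with the other controls. Prim1, the catalytic primase subunit, differed by -0.32 and Pole, the catalytic subunit of polymerase epsilon, by -0.34 (adjusted p = 0.0820 and 0.0572). Pole2, its accessory subunit, differed by -0.15 with overlapping groups.

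The clamp, its loader and the strand processing genes numbered 11. Of these 4 fell and 0 rose, against 3.22% and 2.3% of all tested genes (10 were lower at an unadjusted p below 0.05). Pcna, the sliding clamp, was by far the most abundant of the 49, with 199, 193 and 195 FPKM in tachypaced libraries, against 209, 261 and 303 FPKM in control libraries. The 3 tachypaced values lay within a few FPKM of each other, and control replicate 1 was again the nearest control. Its log2 fold change was -0.38 (SE 0.11, adjusted p = 0.0716), and -0.52 without control replicate 1 (adjusted p = 0.00127). Processed copies of Pcna and Tyms are annotated, and reads could be divided between them and the genes.

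The clamp loader opens PCNA and closes it around DNA. Its subunit gene Rfc4 (chromosome 16, 23113943 to 23127737) had 7.28, 8.24 and 9.29 FPKM in tachypaced libraries, against 11.5, 12.5 and 12.4 FPKM in control libraries, a fall of 0.51 (SE 0.09). The control values were close to each other and all above the tachypaced ones. Rfc1, the large subunit (chromosome 5, 65261850 to 65335670), had 13.8, 14.4 and 15.2 FPKM in tachypaced libraries, against 16.7, 19.5 and 20.7 FPKM in control libraries and a log2 fold change of -0.36 (SE 0.08). Rfc5, Rfc3 and Rfc2 differed by -0.41, -0.28 and -0.19 and did not pass. Exons of Rfc4 overlap those of Eif4a2 on the other strand, which had a log2 fold change of -0.19 (adjusted p = 0.0915).

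Rpa1, the largest subunit of the protein that coats single-stranded DNA (chromosome 11, 75298166 to 75348324), had 12.9, 12.8 and 14.7 FPKM in tachypaced libraries, against 16.8, 22 and 25.6 FPKM in control libraries. It was 37.3% lower in mean FPKM, with a log2 fold change of -0.62 (standard error 0.13, adjusted p = 0.0435). Its partners Rpa2 and Rpa3 differed by -0.29 (adjusted p = 0.0518) and -0.21 (adjusted p = 0.104). The FPKM ratio of Rpa1 to Rpa3 was 0.577, 0.670 and 0.644 in tachypaced libraries, against 0.670, 0.875 and 1.06 in control libraries, so control replicate 1 lay at the tachypaced level. Lig1, the ligase that joins lagging strand fragments (chromosome 7, 13277283 to 13311433), had 19.4, 18.9 and 21.1 FPKM in tachypaced libraries, against 23.8, 30.6 and 32.3 FPKM in control libraries and fell by 0.51 (SE 0.11). Fen1, the nuclease that trims those fragments, differed by -0.20 with overlapping groups (adjusted p = 0.172) and passed without control replicate 1 (adjusted p = 0.0309).

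**Figure D3:**
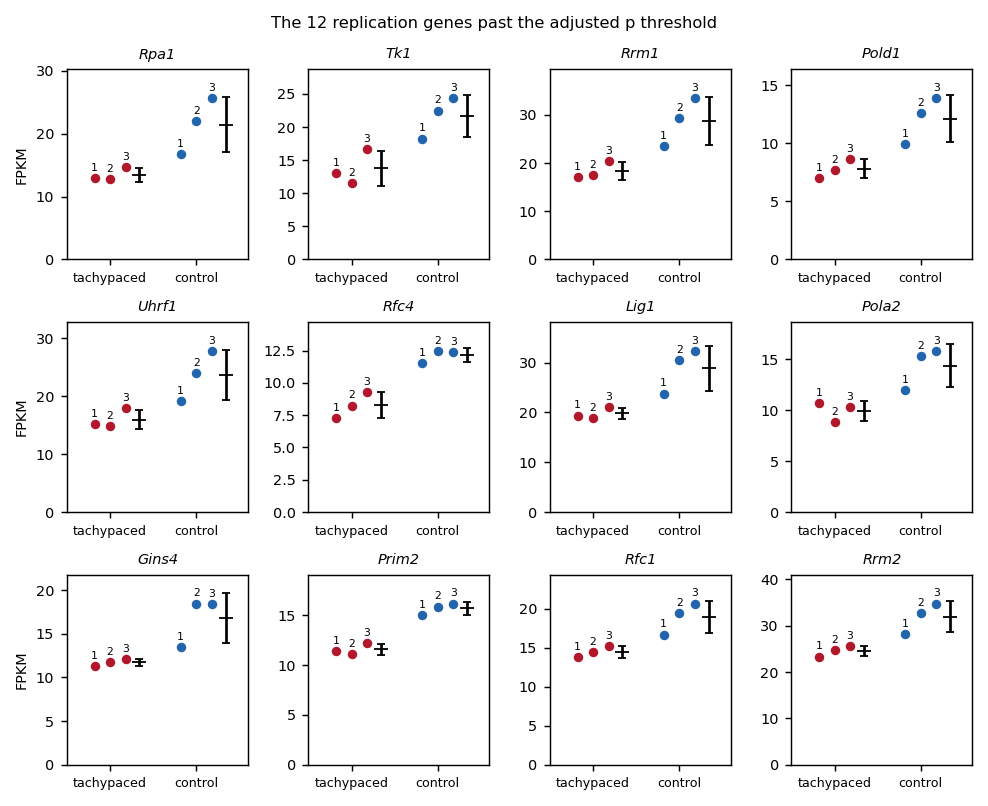
FPKM (y axis, from 0) of the 12 genes past the threshold in each tachypaced (red) and control (blue) library, numbered by replicate, with mean and SD as black bars. In all 12 panels the 3 tachypaced points lie below the 3 control points, which the choice of genes by their call makes likely. Control replicate 1 is the lowest control in each panel.

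Nucleotide supply held 5 genes, of which 3 fell and 0 rose, against 3.22% and 2.3% of all tested genes. At an unadjusted p below 0.05, 3 were lower. Rrm1, the large subunit of ribonucleotide reductase (chromosome 7, 102441695 to 102469771), had 17.2, 17.5 and 20.4 FPKM in tachypaced libraries, against 23.5, 29.3 and 33.4 FPKM in control libraries, a log2 fold change of -0.61 (standard error 0.12, adjusted p = 0.0435). Rrm2, the small subunit that limits the enzyme in dividing cells (chromosome 12, 24708241 to 24714146), had 23.3, 24.7 and 25.5 FPKM in tachypaced libraries, against 28.2, 32.8 and 34.8 FPKM in control libraries and fell by 0.36 (SE 0.08, adjusted p = 0.0451). The groups of both subunits were apart. The FPKM ratio of Rrm1 to Rrm2 was 0.736, 0.711 and 0.799 in tachypaced libraries, against 0.833, 0.894 and 0.962 in control libraries. Tk1, the cytosolic kinase that salvages thymidine (chromosome 11, 117815526 to 117826092), had 13, 11.6 and 16.7 FPKM in tachypaced libraries, against 18.2, 22.5 and 24.3 FPKM in control libraries. Tachypaced replicate 3 came closest to the controls, and the log2 fold change was -0.62 (SE 0.14, adjusted p = 0.0448). Its exons overlap those of Afmid on the other strand, which differed by 0.36 (adjusted p = 0.134). Dut, which removes dUTP and was the most abundant gene here, had 27.7, 29.1 and 30.4 FPKM in tachypaced libraries, against 29.2, 33.1 and 31.9 FPKM in control libraries, and the groups overlapped (adjusted p = 0.291). Tyms, which makes thymidylate anew, differed by -0.13 with overlapping groups.

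Among the genes that copy chromatin along with DNA, 1 of 3 fell, against 3.22% of all tested genes, a count too small to describe the group. Uhrf1, which binds hemimethylated DNA behind the fork and brings in the maintenance methyltransferase (chromosome 17, 56303321 to 56323486), had 15.1, 14.8 and 17.9 FPKM in tachypaced libraries, against 19.1, 24 and 27.8 FPKM in control libraries. Its log2 fold change was -0.53 (SE 0.13, adjusted p = 0.0479). Chaf1a, the large subunit of the histone chaperone CAF-1, differed by -0.34 without overlap (adjusted p = 0.0562). Chaf1b, its partner, stood at 8.21, 9.63 and 9.14 FPKM in tachypaced libraries, against 8.49, 9.04 and 10.8 FPKM in control libraries, with a log2 fold change of -0.06 (95% interval -0.27 to 0.15) whose sign turned without control replicate 3.

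**Figure D4:**
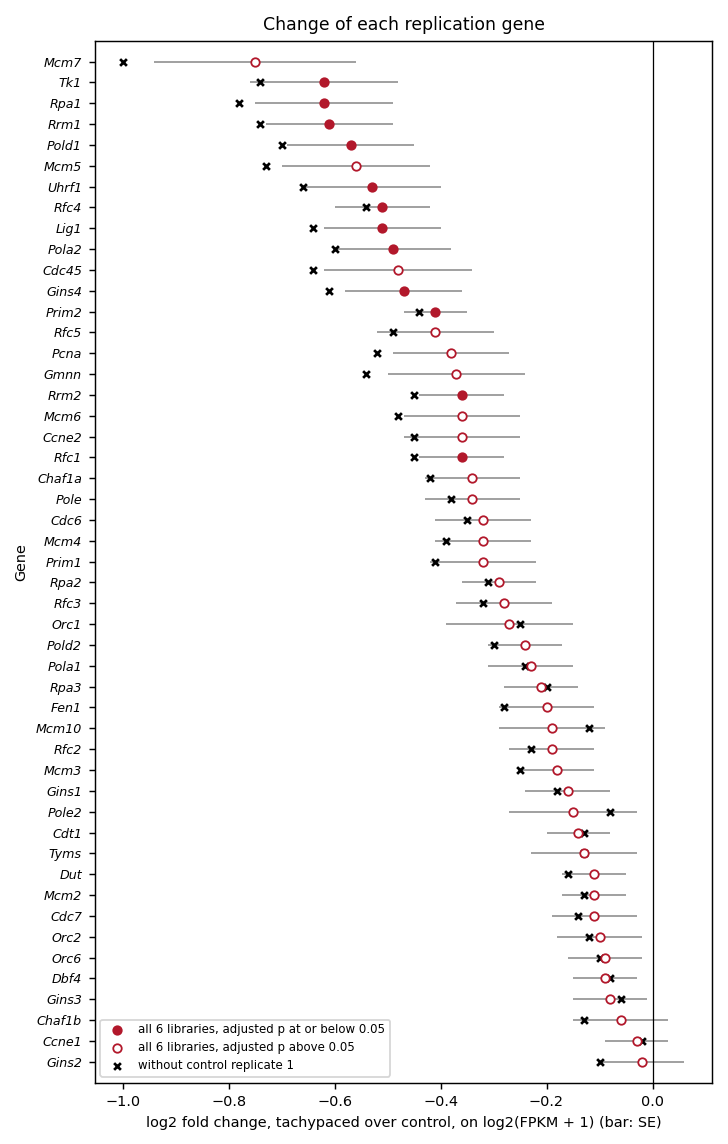
Log2 fold change of each of the 49 genes, tachypaced over control, on log2(FPKM + 1), with SE as grey bars, filled red where the adjusted p was at most 0.05, open where it was not, and a cross for the value without control replicate 1. All 49 circles lie left of 0, from -0.75 (Mcm7) to -0.02 (Gins2).

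Replicates of the controls spread more than those of the tachypaced libraries across this set. The median coefficient of variation of the 49 genes was 6.94% in tachypaced and 10.5% in control libraries, against 5.53% and 7.76% over all tested genes. In 37 of the 49 genes control replicate 1 was the lowest control, and in 39 control replicate 3 was the highest. Summed over the set, FPKM came to 794, 796 and 849.7 in tachypaced libraries, against 908, 1052 and 1164 in control libraries. Without Pcna the sums were 595, 603 and 655 in tachypaced libraries, against 699, 791 and 861 in control libraries. On a scale where the mean of control replicates 2 and 3 is 0 and the tachypaced mean is 1, control replicate 1 had a median position of 0.60 over the 12 genes that fell, from 0.22 for Rfc4 to 0.73 for Gins4. A call depends in part on where that library lies, which limits this range. Members that were not called ran from -3.11 (Pole2) to 2.27 (Gins2). In the same order of libraries, macrophage markers summed to 1295, 1391 and 1253 FPKM in tachypaced and 1138, 1029 and 993 FPKM in control libraries.

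Position beside other genes was examined because several replication genes share a start region with a neighbour. By GENCODE M21 on GRCm38, 7 members had a protein-coding gene that starts within 1000 bases upstream on the other strand and runs away from them, or 14.3%, against 12.03% of the tested protein-coding genes. Of the 7 tested neighbours 0 passed limma's test in either direction, against 3.22% lower and 2.3% higher of all tested genes. At an unadjusted p below 0.05 there was 1, beside 3124 of all 10361 tested genes. Counts this small do not describe the neighbours. Their median log2 fold change was -0.03. Smyd4, 109 bases from the start of Rpa1, averaged 2.82 FPKM in tachypaced and 2.91 FPKM in control libraries. Prkdc, 466 bases from Mcm4, averaged 4.25 FPKM in both groups. Prpf38a, 87 bases from Orc1, had the lowest value, with a log2 fold change of -0.41 (adjusted p = 0.0718).

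The wider replication machinery, a list of 42 symbols with 41 tested genes, had 7 genes lower, or 17.1%, and 0 higher, against 3.22% and 2.3% of all tested genes (20 lower and 0 higher at an unadjusted p below 0.05), a median of -0.20. Top2a, the topoisomerase of replicated chromosomes, had 20.7, 20.7 and 24.1 FPKM in tachypaced libraries, against 28, 35.1 and 40.2 FPKM in control libraries (log2 fold change -0.62, adjusted p = 0.0435). Dnmt1, the methyltransferase that UHRF1 brings to the fork, averaged 25.9 ± 1.67 FPKM in tachypaced and 39.2 ± 7.39 FPKM in control libraries (SD, n = 3 each) and differed by -0.57. Ssrp1, a subunit of the histone chaperone FACT, and Pclaf, a PCNA-binding protein, differed by -0.55 and -0.49, and both passed. The groups of all 4 genes were apart, which their choice as called genes with the largest differences of the list makes likely.

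Of 38 tested enzymes of purine, pyrimidine and folate metabolism 5 fell, or 13.2%, and 0 rose, against 3.22% and 2.3% of all tested genes. At an unadjusted p below 0.05, 14 were lower and 3 higher, and the median was -0.09. Cad, which begins pyrimidine synthesis, and Impdh2, the guanine branch enzyme, both had a log2 fold change of -0.49. Cad averaged 15.8 ± 1.02 FPKM in tachypaced and 22.7 ± 3.27 FPKM in control libraries, and Impdh2 47.1 ± 2.23 FPKM in tachypaced and 67 ± 8.68 FPKM in control libraries (SD, n = 3 each). Mthfd1l, a mitochondrial folate enzyme, differed by -0.34 and Umps, the last enzyme of UMP synthesis, by -0.27. Of 29 tested genes of G1/S control 2 fell, or 6.90%, against 3.22% of all tested genes, and 0 rose (10 lower and 1 higher at an unadjusted p below 0.05), with a median of -0.15. A count this small says little about the list. The genes that fell were Ccna2, cyclin A of S phase, at -0.59, and the transcription factor gene Mybl2, at -0.38. The most abundant gene of that list was Cdkn1a, which encodes the CDK inhibitor p21, with 146, 169.7 and 151 FPKM in tachypaced libraries, against 137, 192 and 205 FPKM in control libraries, and its groups overlapped.

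A list of 30 mitosis genes, all tested, had 21 lower, against 3.22% of all tested genes, and 0 higher (28 lower and 0 higher at an unadjusted p below 0.05), with a median of -0.40. Kif20a, Aurkb, Ccnb2 and Cenpf, which serve spindle, chromosome and mitotic entry functions, had the largest differences, from -0.84 to -0.66. Whether replication and mitosis genes differ in size of change was not tested. Of 13 tested histone genes 3 rose, or 23.1%, against 2.3% of all tested genes, and 0 fell (5 higher and 1 lower at an unadjusted p below 0.05), with a median of 0.19. These were the linker histones H1f2, at 0.65, and H1f0, at 0.54, and H3f3b, at 0.61, a variant made outside S phase as well. The list held 22 histone genes, and H3c1, H3c2, H3c6 and H4c1 were among those too low to be tested. The histone counts therefore cover the replication-dependent genes only in part. The most abundant histone gene of the list, H2az1, had 207, 197 and 213 FPKM in tachypaced libraries, against 218, 229.6 and 239.6 FPKM in control libraries (log2 fold change -0.15, adjusted p = 0.106). Without control replicate 1, when 18.8% of all tested genes were called lower and 11.2% higher, 18 of 41 wider machinery genes (43.9%), 17 of 38 metabolic enzymes (44.7%), 15 of 29 G1/S genes (51.7%), 28 of 30 mitosis genes (93.3%) and 2 of 13 histone genes (15.4%) fell. In the same setting 6 histone genes (46.2%), 4 metabolic enzymes (10.5%), 2 G1/S genes (6.90%) and 0 genes of the other two lists rose. Without any other single library 0 genes of these lists passed in either direction, when at most 1 of all tested genes passed as lower and at most 3 as higher.

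**Figure D5:**
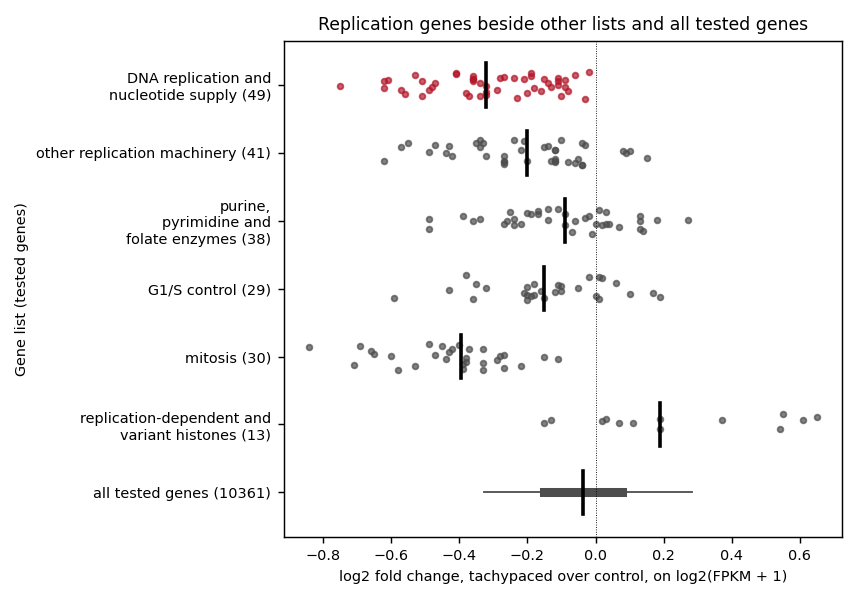
Log2 fold change, tachypaced over control, on log2(FPKM + 1), of the tested genes of each list (points, number in brackets) and of all tested genes (thick bar 25th to 75th and thin line 5th to 95th percentile), with medians as black ticks. The median of the replication set lies at -0.32, between those of the mitosis list (-0.40) and the wider machinery (-0.20), and that of all tested genes at -0.04.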

How the data were processed

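RNA was prepared with a Qiagen extraction kit and a SMARTER mRNA library kit, per the labels' protocols, for 3 tachypaced and 3 control libraries. The authors deposited 1 table of FPKM (fragments scaled to transcript length and library size) per gene name and library. Per the submitters' processing notes, reads were placed on GRCm38 (mm10). Neither aligner nor counter nor strandedness is given in the sources used here. Columns were matched to samples through the labels' sample descriptions.

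From these values log2(FPKM + 1) was computed for the 10361 genes averaging 1 FPKM or more, and tachypaced was compared with control by limma 3.58.1 in R 4.3.3 (eBayes with trend, two-sided, Benjamini-Hochberg threshold 0.05). The code was run on simulated data with capped spread and planted changes larger than that of any member here. That run therefore does not bear on calls of the size reported. Fold changes on this scale understate the change of low genes. Depth is unknown: low values did not fall into steps of whole reads, with at most 5.15% of low-value ratios between libraries (values under 0.1 FPKM) in a bin of 0.05 log2. No 2 libraries held identical values (0 pairs). Gene positions came from GENCODE M21 and promoters from RefSeq (GRCm38.p6), read with Python 3.11.15 and pandas 2.3.3.

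The members and all other lists were chosen with earlier results of these data known. Values of every library are given for members past the threshold, for the most abundant member of each role group and for the 3 smallest changes. From each other list up to 4 called genes are named, by their fold change or more, with the most abundant gene where fewer passed. Library values of Mcm7, Mcm5 and Cdc6, the ratios between members and the promoter of Mcm7 were picked once their values were known. Alternatives varied the pseudocount, filter, scaling, variance trend, replicate block, threshold and libraries.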

Additional observations from a re-analysis of the deposited data

How the results depend on the processing

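The median log2 fold change of the replication set stayed between -0.35 and -0.23 under all alternatives, and 0 of its members passed as higher under any of them. Where counts moved, the cause was not tested. Lower calls in the replication set (12) and over all genes (334, with 238 higher) became 0, 0 and 0 without a filter on low values, 0, 4 and 13 with quantile normalization, and 0, 0 and 2 without the variance trend. Those 3 settings also left 0 lower calls in the wider machinery, the nucleotide enzymes and G1/S control, and 0 higher calls among histones, while mitosis had 0, 1 and 0. Rescaling to a common total gave 25 lower members, 922 lower genes in all, 13 in the wider machinery, 11 nucleotide enzymes and 5 G1/S genes. Median of ratios scaling gave 183 lower genes in all and 3 nucleotide enzymes, and a minimum of 5 FPKM gave 8 of these enzymes and 18 lower members. At a threshold of 0.1 the lower calls were 29 members, 1250 genes (724 higher), 16 of the wider machinery, 11 nucleotide enzymes (2 higher) and 8 G1/S genes, with 5 histones higher. Leaving out 1 library at a time gave 0 to 30 lower members, 0 to 1948 lower and 1 to 1160 higher genes, 0 to 18 wider machinery genes, 0 to 17 nucleotide enzymes (0 to 4 higher), 0 to 15 G1/S genes (0 to 2 higher), 0 to 28 mitosis genes, and 0 to 6 histones higher (0 to 2 lower). The highest count in each case came without control replicate 1. With the replicate number as a block, 23 members and 591 genes in all were lower. Same-numbered libraries deviated together only weakly (correlations 0.061, -0.034 and 0.157), so the numbers were not taken to pair the samples. The log2 fold change of Gins2 turned positive under median of ratios scaling (0.0057) and quantile normalization (0.0405), and ran from -0.0985 to 0.0277 with 1 library left out, positive without control replicate 2 or 3. That of Ccne1 was 0.0225 under quantile normalization. That of Chaf1b ran from -0.1255 to 0.0313 with 1 library left out, positive without control replicate 3. Depth is unknown, so low members such as Cdc6 carry no counting interval.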

Other observations

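Mki67, a marker of cycling cells in the mitosis list, had 32.8, 31.1 and 36.7 FPKM in tachypaced libraries, against 43.6, 44.6 and 51.9 FPKM in control libraries. The ratio of Cdt1 to Gmnn FPKM was 0.919, 0.950 and 0.943 in tachypaced libraries, against 1.02, 0.800 and 0.614 in control libraries, so control replicate 1 lay above the tachypaced values and the other controls below them. The ratio of Gins4 to Gins3 FPKM was 0.730, 0.832 and 0.806 in tachypaced libraries, against 0.832, 1.25 and 1.13 in control libraries. Pcna stood at 17.5, 16.7 and 16.0 times the median member in tachypaced libraries, against 13.9, 16.4 and 18.7 times in control libraries, and these groups overlapped. FPKM of the listed histone genes summed to 1058, 1146 and 1012 in tachypaced libraries, against 937, 869 and 841 in control libraries. H3f3b, H1f0, H2az1 and H3f3a, with tachypaced means of 251, 221, 206 and 137 FPKM, made up most of it, and H2az1 was lower. H3c1, H3c2, H3c6 and H4c1 averaged below 1 FPKM in both groups and were not tested. The sum therefore does not describe the replication-dependent histone genes.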
